A study of Mus musculus with 186 samples.

Results

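Inner cells of CD-1 mouse embryos that had been cultured with the phosphoinositide 3-kinase (PI3K) inhibitor LY294002 (LY) were divided by their level of Nanog. They made up 55 of the 169 single cells analysed. The division was chosen by Nanog itself: 39 cells had a Nanog value of 10 or more TPM (transcript abundance scaled to a fixed total per cell) and are called Nanog-positive, and 16 cells were below 10 TPM and are called Nanog-low. Each cell was measured once, so whether a Nanog-low cell had held more Nanog earlier was not measured.

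Embryos were taken at E2.75, in days after fertilisation, and grown in KSOM medium for 16 or 24 hours with 10 µM LY or with its solvent, DMSO. Zonae were removed and the inner cells were freed by immunosurgery, which lyses the outer layer, and picked singly. Inner cells of the same strain taken fresh, at E3.25, at E3.75 or at E4.0, with no culture and no agent, completed the series. Each date label stands for an independent experiment with several pooled litters, per the series' design text, and is called a collection here and numbered within a group by date; cells of 1 collection share their source and are not replicates.

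NANOG is a homeodomain transcription factor of the epiblast, the inner cells that form the embryo proper, and GATA6 drives the alternative fate, primitive endoderm, which lines the yolk sac. Early inner cells hold both factors. FGF4 from future epiblast cells, read through FGFR1 and FGFR2, moves neighbours towards primitive endoderm, where GATA6 is followed by SOX17 and GATA4, while NANOG, SOX2 and FGF4 persist in epiblast. PI3K activates the kinase AKT, which holds FOXO transcription factors out of the nucleus.

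Some libraries were nearly the same. Across the 14196 pairs of cells the correlation of log values over genes had a median of 0.754, while 4 pairs reached 0.967 to 0.983 and the next pair 0.915. One of these pairs joined an LY cell of collection 1 at 24 hours (Nanog 567.8 TPM, 4241 genes detected) with an LY cell of collection 2 at 24 hours (543 TPM, 4233 genes). Both were Nanog-positive, and the first is 1 of only 2 Nanog-positive cells in its collection. The other 3 pairs held no LY cell. Depth per cell is unknown, because TPM keeps none, and genes detected, those reaching 1 TPM in a cell (3806 to 9179 in LY cells), serve as the measure of library quality.

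**Figure D1:**
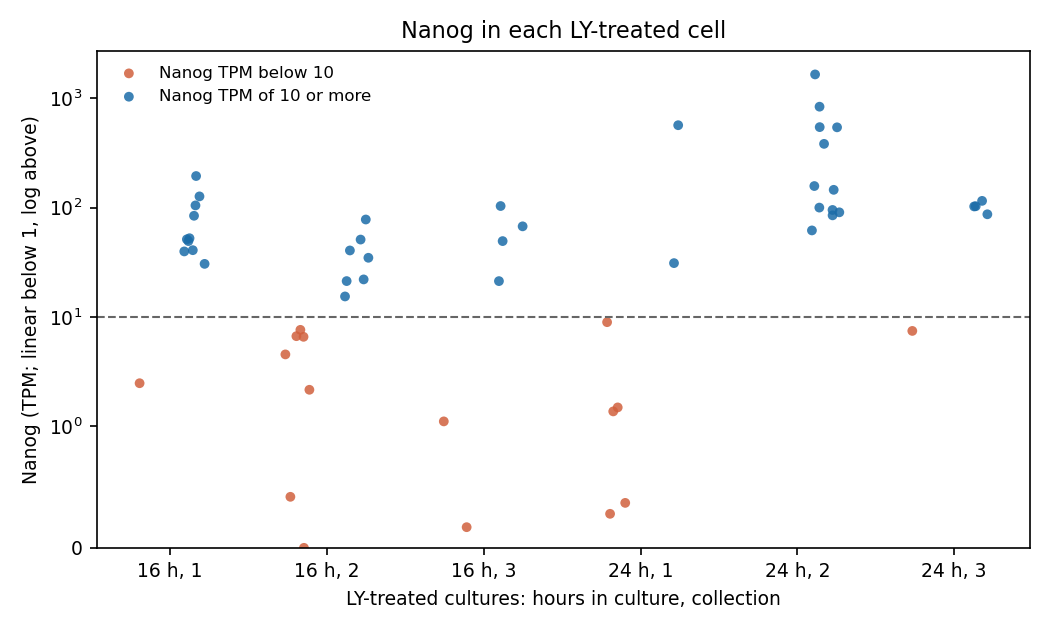
Nanog (TPM, linear below 1 and logarithmic above) in each of the 55 LY-treated cells, by hours in culture and collection. Each point is 1 cell, and the dashed line marks the 10 TPM that divides the 39 Nanog-positive from the 16 Nanog-low cells.

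Nanog-low cells were spread unevenly over collections. At 16 hours they were 1 of 11 cells in collection 1, 7 of 14 in collection 2 and 2 of 6 in collection 3. At 24 hours they were 5 of 7 cells in collection 1, 0 of 12 in collection 2 (which allows a share of up to 25%) and 1 of 5 in collection 3. The lowest Nanog-positive cell had 15.42 TPM, and the highest Nanog-low cells had 8.97, 7.63 and 7.46 TPM. These counts are set by the rule and are given as a description. Counts of cells by class over all LY cells, given below, do not pair the classes within collections. Elsewhere, Nanog was below 10 TPM in 2 of 59 DMSO cells, 1 of 22 cells at E3.75, 2 of 14 at E4.0 and 0 of 19 at E3.25. By collection, the share of Nanog-positive cells was lower with LY than with DMSO in 5 of 6 date labels, with a mean difference (LY minus DMSO) of -28.2 percentage points.

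The pluripotency factor gene Pou5f1 (OCT4) was present in all Nanog-low cells. It was at 10 TPM or more in 16 of 16 Nanog-low cells, where it ran from 10.9 to 699 TPM with a median of 196, and in 39 of 39 Nanog-positive cells, from 13.5 to 701 TPM with a median of 222. The ranges of the classes overlapped almost fully. Tfcp2l1 and Esrrb, transcription factors of the naive pluripotent state, were also present in most: Tfcp2l1 was at 10 TPM or more in 13 of 16 Nanog-low and 31 of 39 Nanog-positive cells, and Esrrb in 11 of 16 and 31 of 39. Sall4, a zinc-finger factor of the same network, was at 10 TPM or more in 8 of 16 and 21 of 39. In the fit described below, none of these 4 genes passed the test, with differences (Nanog-positive minus Nanog-low, on the log2(TPM + 1) scale) of 0.44 for Pou5f1, -1.65 for Tfcp2l1, -0.36 for Esrrb and -1.05 for Sall4.

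Sox17, Gata4 and Pdgfra, the later markers of primitive endoderm, were at or near 0 in the Nanog-low LY cells, while other markers on the list were not. Sox17, which drives endoderm maturation, was listed at 0 in all 16, which allows up to 18.8% of such cells with a value; Gata4, which acts beside it, reached at most 0.25 TPM; and Pdgfra, a growth factor receptor of primitive endoderm, reached at most 2.15 TPM. Among the 39 Nanog-positive LY cells the highest Sox17 value was 99.2 TPM, and 1, 3 and 2 cells were at 10 TPM or more for Sox17, Gata4 and Pdgfra. Whether the classes differ in these rare values was not detectable with 16 cells. The 2 fresh Nanog-low cells at E4.0 gave another picture, with Sox17 at 47.04 and 19.8 TPM and Gata4 at 59.4 and 53.3 TPM. With 2 cells of 1 collection this difference from LY cells was not tested. The 2 Nanog-low DMSO cells had Sox17 at 0 in both, Gata4 at 0.39 and 0 TPM, and Pdgfra at 14.4 and 0 TPM. The Nanog-low cell at E3.75 had Sox17 at 11.4 and Gata4 at 2.15 TPM. Values of Sox17 and Gata4 at or near 0 were thus not limited to LY culture. Over the whole list of 25 primitive endoderm markers, 5 were at 0 in all Nanog-low LY cells and 1 in all Nanog-positive ones. In at least 1 cell, 12 and 18 reached 10 TPM. Such counts depend on the number of cells, 16 against 39. Per cell, the median number of these markers at 10 TPM or more was 4 and 5. The summed level ran from 34.1 to 2224 TPM (median 494) in Nanog-low and from 227 to 3080 TPM (median 584) in Nanog-positive LY cells. In the fresh Nanog-low cells at E4.0 the same sum was 3036 and 3757 TPM, above every Nanog-low LY cell. Nanog-positive cells at E4.0 had sums of 399 to 5485 TPM (median 1723), so high sums at that stage were not limited to Nanog-low cells.

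Gata6 itself was found in both classes. In Nanog-low cells Gata6 was at 10 TPM or more in 8 of 16 (50%, exact Clopper-Pearson 95% interval 24.7 to 75.3%), and in Nanog-positive cells in 26 of 39 (66.7%, 49.8 to 80.9%); intervals here cover counting error only. In collection 2 at 16 hours the 7 Nanog-low cells had 0.48, 0.50, 0.74, 10.4, 13.8, 16.8 and 29.9 TPM, so that 3 cells were near 0 and 4 were not. The 7 Nanog-positive cells beside them had 1.71 to 25.2 TPM (median 12.1), within the range of the others. In collection 1 at 24 hours the 5 Nanog-low cells had 0, 0.56, 6.95, 26.1 and 118 TPM, and the 2 Nanog-positive cells 0.12 and 179 TPM, which is as wide. The share of cells with Gata6 was higher in Nanog-positive cells in each of the 3 collections with at least 2 cells of each class, by 16.4 points on average (exact sign-flip permutation test, two-sided, p = 0.25, the smallest p that 3 collections allow; 1 after adjustment over Gata6, Sox2, Fgf4 and Sox17). Counting cells at 1 TPM or more the difference was 2.62 points (p = 1 by the same exact test), and in collection 1 at 16 hours, with 1 Nanog-low cell, it was -30.0 points.

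**Figure D2:**
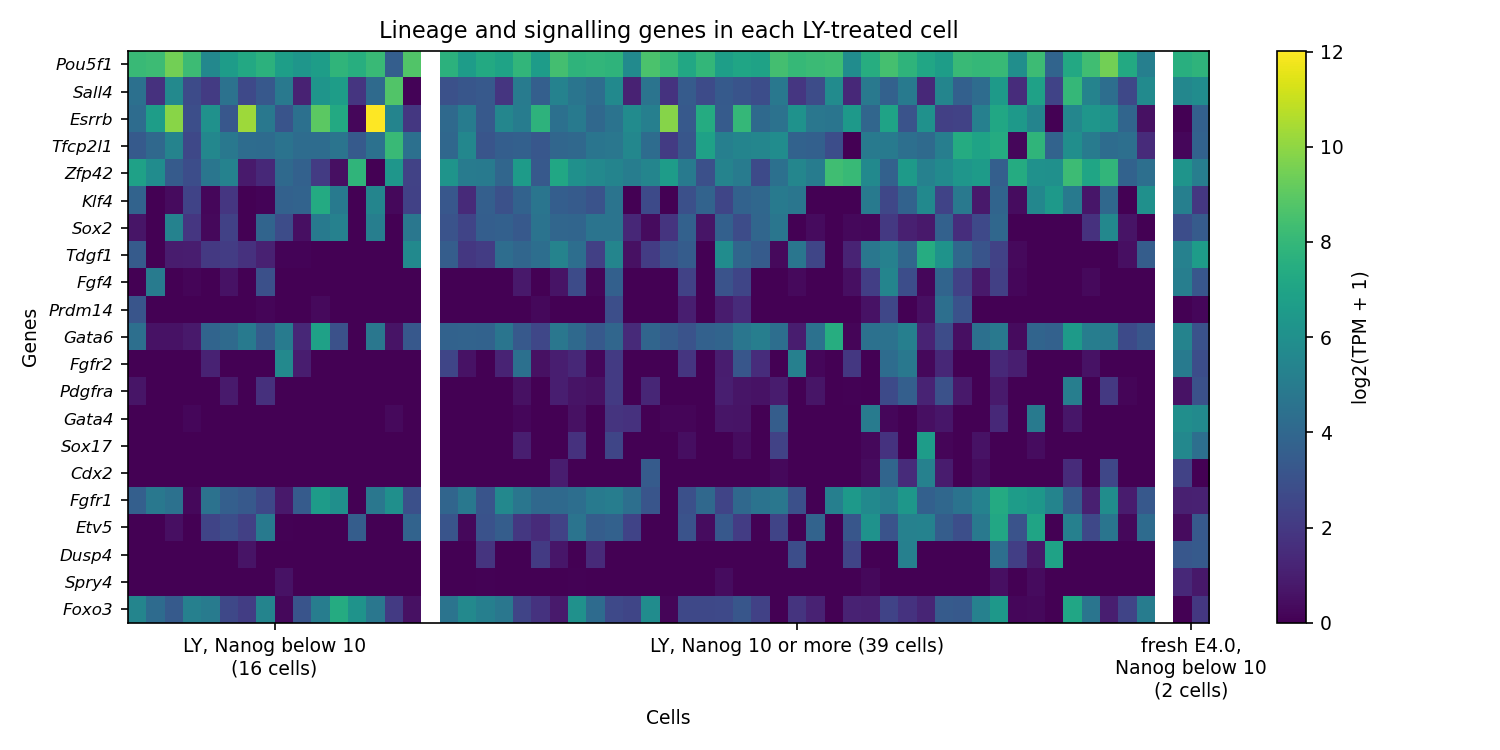
Level of 21 lineage and signalling genes (rows, log2(TPM + 1), colour) in each LY cell and in the 2 fresh E4.0 cells with Nanog below 10 TPM (columns; white lines divide the sets). Pou5f1 is present in all LY cells, Sox17 and Cdx2 are at 0 in all 16 Nanog-low LY cells, and Sox17 and Gata4 are high in both E4.0 cells.

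Sox2, the partner of OCT4 and an epiblast gene, was also present in part of the Nanog-low cells. It was at 10 TPM or more in 6 of 16 Nanog-low cells and 14 of 39 Nanog-positive cells. Its direction depended on the collection. In collection 1 at 24 hours Sox2 was 30.2, 33.8 and 38.3 TPM in 3 Nanog-low cells and 0 in the other 2, against 0 and 0.20 TPM in the 2 Nanog-positive cells. In collection 1 at 16 hours the single Nanog-low cell had 0.62 TPM, below all 10 Nanog-positive cells (4.56 to 23.7 TPM). The share differed by -3.33 points over 3 collections (exact sign-flip permutation test, two-sided, p = 1), and without collection 1 at 24 hours it differed by 25 points in the other direction, with p = 1.

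Taking Gata6 and Sox2 together at 10 TPM, 3 of 16 Nanog-low cells held both, 5 held Gata6 only, 3 held Sox2 only and 5 held neither; all 5 cells with neither held Pou5f1 at 10 TPM or more. Of the 39 Nanog-positive cells, 10 held both, 16 held Gata6 only, 4 held Sox2 only and 9 held neither. Cells of either class thus fell into all 4 combinations.

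Fgf4 was scarce in LY cells of either class. It was at 10 TPM or more in 1 of 16 Nanog-low cells, the exception holding 31.3 TPM of Fgf4 with Nanog listed at 0, and in 3 of 39 Nanog-positive cells. Among Nanog-positive DMSO cells it was at that level in 12 of 57. Prdm14, a repressor active in naive pluripotency, was at 0 in 13 of 16 Nanog-low and 29 of 39 Nanog-positive cells. Of the genes downstream of FGF, the phosphatase gene Dusp4 reached at most 0.53 TPM in Nanog-low cells and was at 10 TPM or more in 3 of 39 Nanog-positive cells, and the inhibitor gene Spry4 was below 1 TPM in all 55. The ETS factor gene Etv5 was at 10 TPM or more in 3 of 16 and 15 of 39. The receptor gene Fgfr1 was widespread, in 10 of 16 and 28 of 39, and Fgfr2 was not, in 1 of 16 and 4 of 39. Foxo3, which encodes a factor that AKT restrains, was at 10 TPM or more in 9 of 16 Nanog-low and 12 of 39 Nanog-positive cells; its difference of -2.66 had an adjusted p of 0.093 by limma, and it was lower in Nanog-positive cells in 4 of 5 collections.

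Markers of trophectoderm, the outer layer that immunosurgery removes, were found in both classes, apart from Cdx2. Cdx2, its defining transcription factor, was listed at 0 in all 16 and was at 10 TPM or more in 2 of 39 Nanog-positive cells. Over 19 trophectoderm markers the summed level was 89.6 to 1100 TPM (median 241) in Nanog-low and 52.5 to 1122 TPM (median 296) in Nanog-positive cells. In at least 1 cell, 13 and 15 of the 19 reached 10 TPM, while the median number per cell was 4 in both classes. Of 11 genes of the 2-cell stage, 10 were at 0 in all Nanog-low cells and 8 in all Nanog-positive ones. Counts over all cells of a class again depend on its size, 16 against 39 cells.

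**Figure D3:**
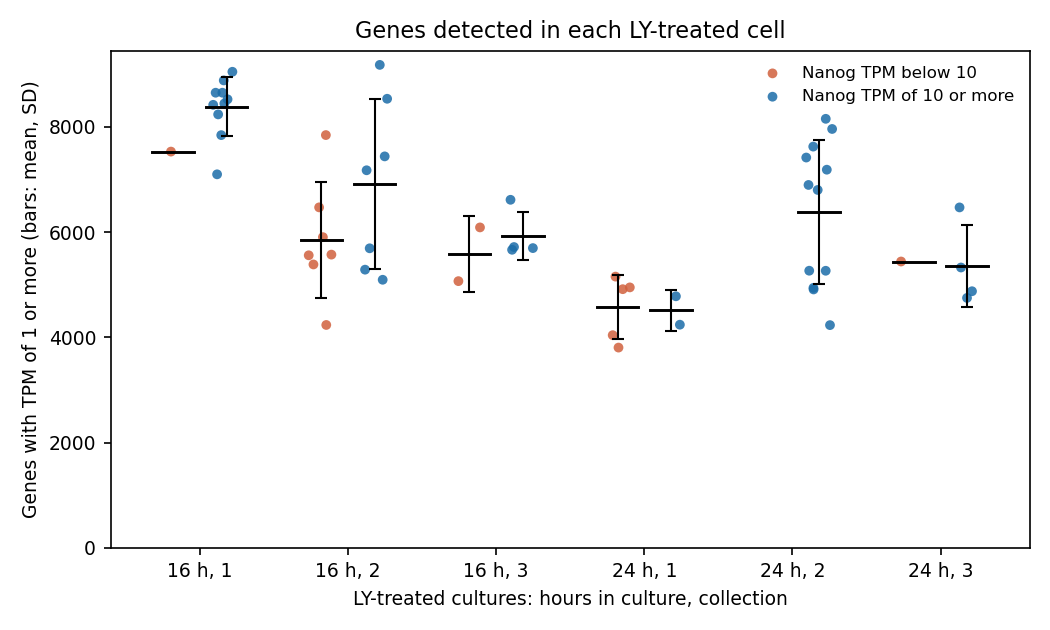
Genes detected, each reaching 1 TPM, per LY cell, by collection and Nanog class (points; bars are the mean and SD, with no SD for 1 cell). In collection 2 at 16 hours the mean is 5854 in Nanog-low and 6915 in Nanog-positive cells, and in collection 1 at 24 hours the classes lie together.

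Library quality was compared before the test across genes. The mean number of genes detected was 5854 ± 1107 (SD, n = 7 cells) in Nanog-low and 6915 ± 1610 (n = 7) in Nanog-positive cells of collection 2 at 16 hours. It was 5580 ± 722 (n = 2) and 5924 ± 461 (n = 4) in collection 3 at 16 hours, and 4574 ± 606 (n = 5) and 4511 ± 382 (n = 2) in collection 1 at 24 hours. Nanog-positive cells had 447 more genes on average over these 3 collections (exact sign-flip permutation test, two-sided, p = 0.5), and 421 more over all 5 collections with both classes, where the direction held in 3 of 5 (p = 0.25, smallest 0.0625). Over all LY cells the median was 5414 genes in Nanog-low and 6897 in Nanog-positive cells. The median mitochondrial share of TPM was 4.14% and 6.99%, but its direction depended on the collection. At 16 hours it was 9.92% and 13.1% in collection 1, 3.44% and 6.99% in collection 2, and 11.3% and 7.51% in collection 3. At 24 hours it was 3.19% and 3.32% in collection 1, and 15.3% and 3.30% in collection 3. Whether these gaps bear on the gene differences of both culture times was not tested, since that fit has no degree of freedom left for them.

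Across genes, Nanog-positive and Nanog-low cells were compared within collections with limma on class means, over 9685 genes, with Nanog left out. Only 3 LY collections had 2 cells in each class (2 and 3 at 16 hours and 1 at 24 hours), which left 1 residual degree of freedom. At an adjusted p below 0.05, 209 genes were higher and 54 lower in Nanog-positive cells, together 2.72% of those tested, beside a median difference of 0.14 over all genes. The filter on low values counted all LY cells, 39 of them Nanog-positive and 16 Nanog-low. A gene found only in Nanog-positive cells could thus pass it more readily than one found only in Nanog-low cells. Nothing is read from the imbalance of the 2 directions. At 16 hours alone, from 2 collections, 0 genes (0%) passed and 560 had an unadjusted p below 0.05; at 24 hours alone 634 genes passed (453 higher and 181 lower, 6.55%), from 1 collection with 5 and 2 cells, 1 of them from the near-identical pair. The spread in both fits that include 24 hours comes from the 2 collections at 16 hours. Without that pair the comparison of both times could not be fitted. An added fit used all 5 LY collections with at least 1 cell of each class, 4 other collections to share the spread, and 7 residual degrees of freedom. It called 0 genes (0%) for the LY split, with 549 at an unadjusted p below 0.05, and also 0 without the pair. Within sequencing runs too few cells remained for 2 per class, so these fits took at least 1 cell per class, which also changed the collections used: 484 genes were called in run 1 and 0 in run 2 (178 unadjusted), with 10 and 6 of the Nanog-low cells. Without the split by run, at least 1 cell per class gave 0. In the 2 LY collections outside the fit, 55 of the 263 genes (20.9%) differed in the called direction in both, beside 22.96% of all genes tested.

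Among the pluripotency genes Zfp42 passed. It encodes REX1, a marker of naive pluripotency, and lies at chr8:43295063-43306980 (mm10, minus strand). Zfp42 was at 10 TPM or more in 8 of 16 Nanog-low and 36 of 39 Nanog-positive cells. It was 0, 0.42, 3.29, 78.2 and 233 TPM in the Nanog-low cells of collection 1 at 24 hours. The 2 Nanog-positive cells there had 275 and 317 TPM, so these classes did not overlap. In that collection, here and for the genes below, 1 of the 2 Nanog-positive cells was from the near-identical pair. In collection 2 at 16 hours Zfp42 was 0.85 to 56.8 TPM (median 9.89) and 6.61 to 97.3 TPM (median 32.7), with overlap. The difference was 2.94 ± 0.72 (SE; limma adjusted p = 0.043) and 1.78 ± 0.82 with all 5 collections (adjusted p = 0.86). It was higher in Nanog-positive cells in 4 of 5 collections; in collection 1 at 16 hours the single Nanog-low cell had 115 TPM, above 9 of the 10 others.

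Tdgf1, which encodes the NODAL co-receptor CRIPTO, differed in pooled cell counts but did not pass. Tdgf1 was at 10 TPM or more in 1 of 16 Nanog-low and 18 of 39 Nanog-positive cells. These counts do not pair the classes within collections. Of the 39 Nanog-positive cells, 10 were from collection 1 at 16 hours, which had 1 Nanog-low cell. Another 12 were from collection 2 at 24 hours, which had no Nanog-low cell. In collection 2 at 16 hours the Nanog-low cells had 0 to 3.36 TPM (median 1.15) and the Nanog-positive cells 0 to 55.6 TPM (median 7.23). The exception was the only Nanog-low cell of collection 3 at 24 hours, which at 51.7 TPM was above its 4 Nanog-positive neighbours (0 to 10.8 TPM). Its difference was 1.32 ± 0.82 (limma adjusted p = 0.42), higher in Nanog-positive cells in 4 of 5 collections. Of 22 naive pluripotency factors 19 were tested; 2 were higher in Nanog-positive cells, Zfp42 and Dppa3, 0 were lower, and the median difference was 0.21. Tdh, a threonine-catabolising enzyme gene of pluripotent cells, did not pass (2.94, adjusted p = 0.070 by limma) but was higher in Nanog-positive cells in all 5 collections. Dppa3 (STELLA, a maternal factor that guards DNA methylation) had a difference of 2.83 but was higher in Nanog-positive cells in only 1 of 5 collections.

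**Figure D4:**
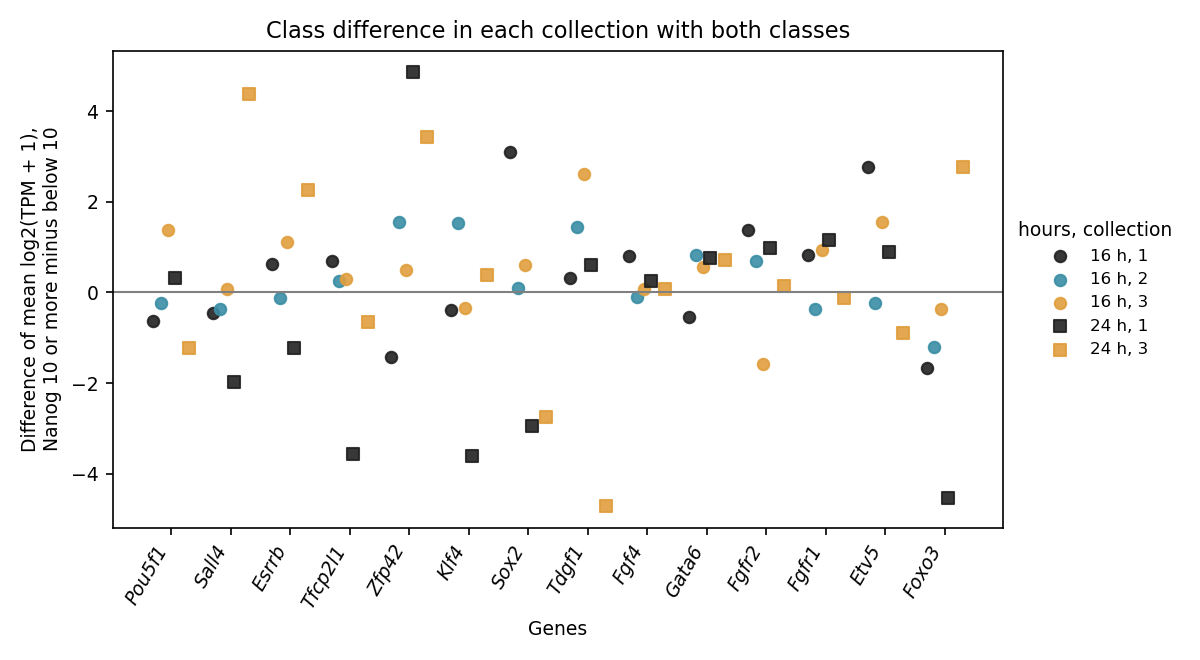
Difference of mean log2(TPM + 1) between Nanog-positive and Nanog-low cells for 14 tested lineage and signalling genes in each LY collection with both classes (circles 16 hours, squares 24 hours, colour for the collection). Zfp42, Gata6 and Tdgf1 are above 0 in 4 of 5 collections and Foxo3 below 0 in 4 of 5, while Sox2 and Klf4 fall on both sides. Fgf4 and Fgfr2 are also above 0 in 4 of 5, Fgf4 by as little as 0.08. Few Nanog-low cells reached 1 TPM for either, so both passed the filter through Nanog-positive cells, and no direction is read from them.

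Among the 12 genes with the largest difference in each direction, Rnf31 had the same direction in all 5 collections. Of the 263 called genes, 34 had the called direction in all 5. Of all 9685 genes tested, 558 had the direction of their all-collection fit in all 5. The collections of the fit that chose the genes are among these 5, so agreement there was partly set in advance. The same limit holds for the other genes said to agree in all 5. Rnf31 encodes HOIP, the catalytic subunit of the linear ubiquitin ligase, and lies at chr14:55591708-55603693 (mm10, plus strand). Rnf31 was at 10 TPM or more in 1 of 16 Nanog-low and 24 of 39 Nanog-positive cells, with medians of 0.58 and 23.4 TPM. In collection 2 at 16 hours the Nanog-low cells had 0, 0.07, 0.57, 1.87, 2.18, 6.34 and 72.9 TPM and the Nanog-positive cells 0.42, 2.04, 3.48, 33.4, 33.8, 81.3 and 307 TPM. The classes of collection 1 at 24 hours had 0 to 3.44 TPM and 101 and 221 TPM, with no overlap, but 1 of these 2 Nanog-positive cells was from the near-identical pair. The difference was 4.69 ± 0.82 (limma adjusted p = 0.012) and 3.94 ± 0.79 with all 5 collections, where the unadjusted p was 1.2e-04 and the adjusted p 0.64. Nanog-positive DMSO cells had a median of 12.2 TPM.

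Acaa2, a mitochondrial thiolase of fatty acid oxidation, had the largest difference, 5.38 ± 0.86 (limma adjusted p = 0.0096; 3.41 with all 5 collections, adjusted p = 0.86). In collection 1 at 24 hours it was 0 in 4 Nanog-low cells and 1.17 TPM in the fifth, against 53.1 and 818 TPM. In collection 3 at 24 hours the order turned, with 73.1 TPM in the Nanog-low cell and 0.26 to 335 TPM in the others. Pelo, a ribosome rescue factor, differed by 4.94 and was at 0 in all 5 Nanog-low cells of collection 1 at 24 hours against 49.9 and 145 TPM; it was higher in Nanog-positive cells in 4 of 5 collections. The others of these 12 were Snhg5, Trappc2l, Bnip1, Exosc7, Mepce, Lap3, Cenph, Lbhd1 and Gm44987, with differences of 4.22 to 5.20. Of these 9, Gm44987, an antisense gene whose reads cannot be told from those of its partner without strand, had the same direction in all 5 collections.

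The genes lower in Nanog-positive cells were led by others. Mrpl42, a protein of the mitochondrial ribosome, was lower in all 5 collections, with a difference of -4.13 ± 0.68 (limma adjusted p = 0.0096; -2.74 with all 5 collections, adjusted p = 0.86). It was 39.1 to 511 TPM in the Nanog-low cells of collection 1 at 24 hours and 0 and 1.19 TPM in the Nanog-positive cells, and 19.6 to 419 against 0.95 to 185 TPM in collection 2 at 16 hours. Ass1, an enzyme of arginine synthesis, differed by -4.47 and was lower in 4 of 5. Hspb1, a small heat shock protein gene, differed by -4.20 and was lower in 3 of 5; with all 5 collections its difference was 0.007. Gm26377 and Mir703 are annotated as microRNA genes, and Rpl15-ps3 and Gm6977 as processed pseudogenes; reads of such short or copied genes can come from other loci, so their values are uncertain. The remaining genes of the 12 were Dkkl1, Atp6v1f, Sec11c, Psenen and Txnrd1, with differences of -3.64 to -4.28.

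**Figure D5:**
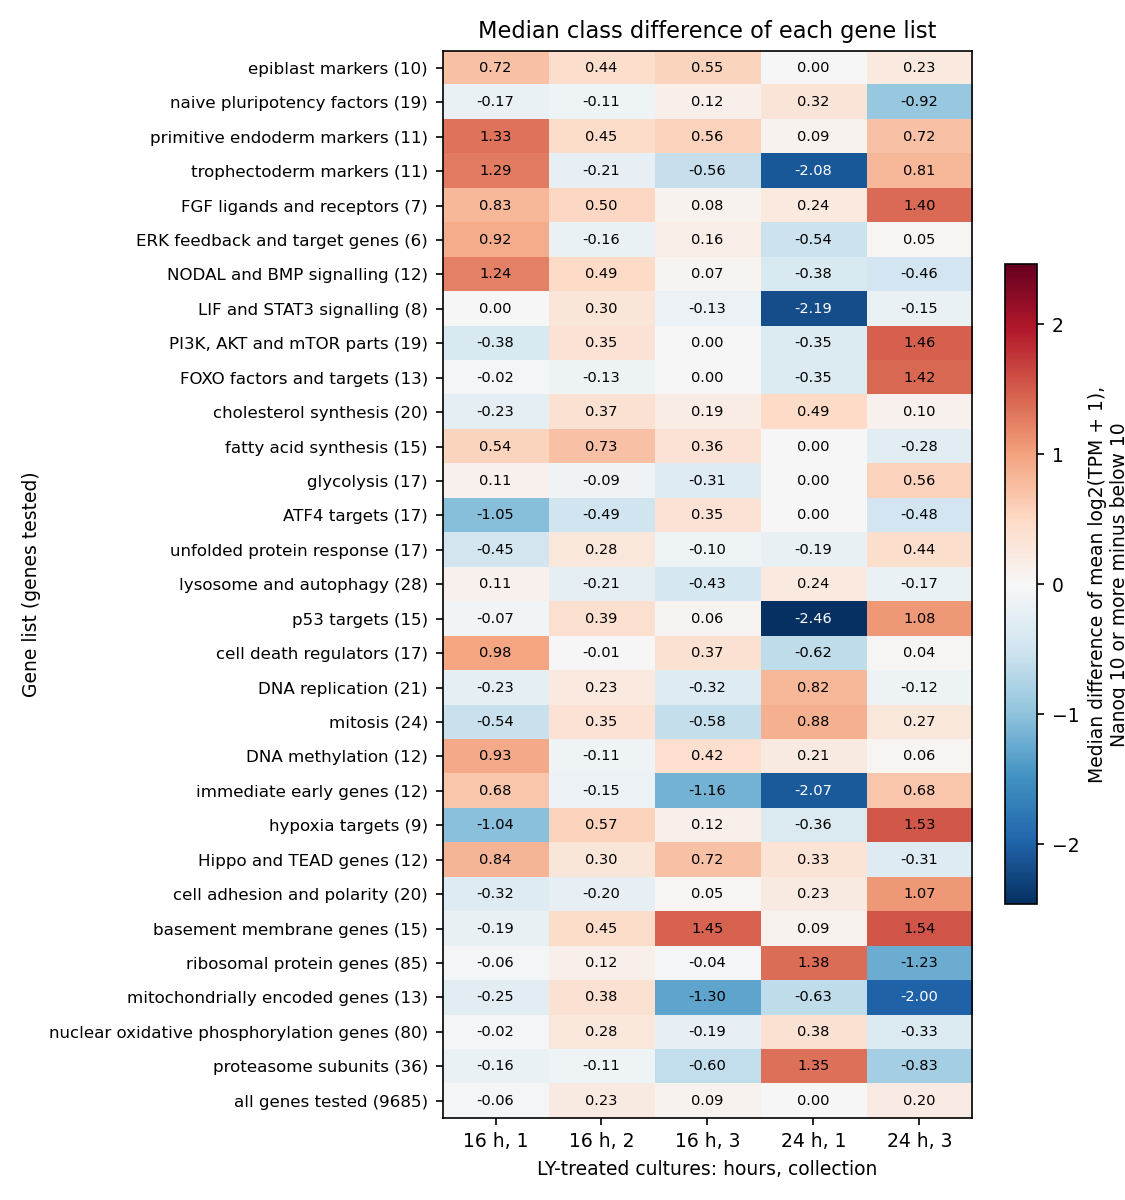
Median difference between Nanog-positive and Nanog-low cells (log2(TPM + 1) scale; numbers and colour) of each gene list with at least 6 tested genes, in the 5 LY collections with both classes. Ribosomal protein genes and proteasome subunits are near 0 or below it in 4 collections and above 1 only in collection 1 at 24 hours.

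Housekeeping lists differed between collections. The counts below stand beside 209 higher and 54 lower of 9685 genes (2.72% in all). Of 85 ribosomal protein genes tested, 22 were higher and 4 lower in Nanog-positive cells, with a median difference of 0.68 beside 0.14 for all genes. By collection that median was -0.06, 0.12 and -0.04 at 16 hours, and 1.38 and -1.23 in collections 1 and 3 at 24 hours. Rps25 and Rps4x, picked out after their values were seen, were lower in Nanog-positive cells in all 5 collections, by -2.64 and -2.29. The 36 proteasome subunits gave 4 higher and 0 lower, with a median of 1.35 in collection 1 at 24 hours and -0.11 to -0.83 in the others. Of 21 DNA replication genes, 3 were higher (Pcna, the polymerase clamp; Mcm3, a helicase subunit; Gins1, its partner) and 0 lower. They were higher in Nanog-positive cells in only 2, 2 and 1 of 5 collections, with differences of 0.66, 0.69 and 0.85 when all 5 were fitted (adjusted p = 0.95 for each by limma), and the list's median was above 0 in 2 of 5. Nuclear genes of oxidative phosphorylation gave 8 higher and 3 lower of 80. Of 13 mitochondrially encoded genes, 2 were lower and 0 higher, and their median was below 0 in 4 of 5 collections.

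With 2.72% of all genes called, lists of this size hold about as many calls as the lineage lists did, and nothing particular to them is read from these counts. Of 10 epiblast markers tested, Zfp42 alone passed. Of 11 primitive endoderm markers 0 passed, with a median of 0.27 that was above 0 in 5 of 5 collections. Of 11 trophectoderm markers 0 passed, with a median of -1.08, but of 0.13 in the fit with all 5 collections. By collection the trophectoderm median was 1.29, -0.21 and -0.56 at 16 hours, and -2.08 and 0.81 in collections 1 and 3 at 24 hours. FGF ligands and receptors (7 tested), ERK feedback genes (6), NODAL and BMP genes (12), LIF and STAT3 genes (8), PI3K, AKT and mTOR parts (19) and FOXO factors and targets (13) each gave 0 in either direction. Cholesterol synthesis gave 1 of 20, Fdps (farnesyl diphosphate synthase), fatty acid synthesis 1 of 15, Acss2 (acetyl-CoA synthetase), and glycolysis 1 of 17, Pkm (pyruvate kinase), which was lower in Nanog-positive cells. The ATF4 targets (17), unfolded protein response (17) and mitosis (24) lists gave 0.

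Immediate early genes, which switch on within minutes of a stimulus, had differences below 0 (higher in Nanog-low cells) for all 12 tested, with a median of -1.55, but only Ier2 passed (-3.08, limma adjusted p = 0.033). With all 5 collections 9 of 12 were below 0, the median was -0.37 and Ier2 was at -1.01 (adjusted p = 0.92). The list's median was above 0 in 2 of 5 collections, at 0.68 in collection 1 at 16 hours and in collection 3 at 24 hours. Their summed level was 4.44 to 1312 TPM (median 230) in Nanog-low and 12.3 to 294 TPM (median 89.2) in Nanog-positive LY cells, and 0.45 to 309 TPM (median 50.6) in Nanog-positive DMSO cells. The sum in collection 1 at 24 hours was 230 to 1312 TPM in Nanog-low and 12.3 and 142 TPM in Nanog-positive cells, with no overlap, and in collection 3 at 16 hours 185 and 310 against 18.3 to 107 TPM, again with none. In collection 2 at 16 hours the medians were 93.8 and 94.9 TPM, and in collection 3 at 24 hours the Nanog-low cell had the lowest sum of all LY cells, 4.44 TPM. Of 15 p53 targets tested, Bbc3 (PUMA, which promotes cell death) was higher in Nanog-low cells, at -1.81 (adjusted p = 0.036), and 0 were lower in them; it was higher in Nanog-positive cells in 4 of 5 single collections. Diablo, whose product releases the block on apoptosis, was higher in Nanog-positive cells, by 3.04, and in all 5 collections. The difference of class effects between 24 and 16 hours passed for 123 genes (1.27%). Its 24-hour side is collection 1 alone, with the spread taken from the 2 collections at 16 hours, and collection 3 at 24 hours went the opposite way in the medians of ribosomal protein genes (-1.23 against 1.38) and p53 targets (1.08 against -2.46), so a change with time is not shown.

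The Nanog split in cells without LY gave a comparison for these differences. The other 4 collections with both classes (1 DMSO collection at each time, E3.75 and E4.0) gave 0 called genes (0%), with 720 at an unadjusted p below 0.05, and the difference between the LY split and this split passed for 0 genes (0%), with 390 unadjusted. Each of these collections had 1 or 2 Nanog-low cells. At this size a difference between the splits was not detectable, which does not show that they are alike. The comparison of LY with DMSO among Nanog-low cells could not be fitted.

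When Nanog-positive cells alone were compared between LY and DMSO (6 collections each, paired by date), 0 genes (0%) passed, with 1087 at an unadjusted p below 0.05 and a median difference (LY minus DMSO) of -0.25 over all genes. Nupr1, a stress-response gene and ATF4 target, had the smallest p, with a difference of -3.20 ± 0.49 (limma adjusted p = 0.069). Nupr1 was at 10 TPM or more in 18 of 39 Nanog-positive LY cells and 42 of 57 Nanog-positive DMSO cells, with medians of 3.49 and 100 TPM. Gsta4, a glutathione transferase gene, differed by -2.68 ± 0.42 (adjusted p = 0.069), with 8 of 39 and 30 of 57 cells at that level. Fgf4 differed by -1.37 and Tdgf1 by -1.77, with unadjusted p of 0.0014 and 0.0018 by limma. Neither passed after adjustment, and both are among the 1087 genes counted above. Mean genes detected in Nanog-positive cells were lower with LY in each of the 6 collections. In collections 1 to 3 at 16 hours they were 8380, 6915 and 5924 with LY and 9995, 7181 and 7102 with DMSO. At 24 hours they were 4511, 6389 and 5356 with LY and 5726, 6824 and 6969 with DMSO.

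Nanog-low LY cells were also set against Nanog-positive DMSO cells of the same dates, a contrast that shares its DMSO cells with the preceding one. It called 206 genes (2.13%), 21 higher and 185 lower in Nanog-low LY cells, with a median of -0.42 over all genes. Higher were immediate early genes, 5 of 12 tested (Egr1, Junb, Jund, Dusp1 and Btg2, by 2.19 to 3.52), and the cell cycle inhibitor gene Cdkn1a, by 3.38 ± 0.74 (limma adjusted p = 0.033). Dusp1, a phosphatase gene, was at 10 TPM or more in 9 of 16 Nanog-low LY, 7 of 39 Nanog-positive LY and 5 of 57 Nanog-positive DMSO cells. Lower were 20 of 85 ribosomal protein genes, 10 of 80 oxidative phosphorylation genes and Tubb5 (a tubulin, -4.65). So were the pluripotency genes Tdgf1 (-2.77, limma adjusted p = 0.042), Dppa3 (-2.91) and Tdh (-3.61). Of 19 naive pluripotency factors tested, 2 were called lower and 0 higher, and 8 had differences above 0. Their median was -0.47, beside -0.42 for all genes. Of 10 epiblast markers tested, 1 was called lower. Nanog-low LY cells averaged 4574 to 5854 genes detected in the 3 collections of this contrast and the DMSO cells 5726 to 7181 in theirs; with genes detected in the fit 0 genes passed, and 334 had an unadjusted p below 0.05, against 1899 without it. Without collection 3 at 16 hours 0 genes passed, and without collection 2 at 16 hours 6 did.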

How the data were processed

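Single inner cells were sequenced from the 3′ end of polyadenylated RNA in 2 runs, per the labels' protocols. The authors deposited 1 table of TPM values; it was made with RSEM 1.3.3, STAR 2.7.9a, cutadapt 2.9 and bcl2fastq 2.20.0, on build mm10, per the submitters' processing notes. Their settings and the annotation are not given in the sources used here. Since TPM keeps no depth, depth per cell is unknown. TPM divides by length although reads start at the 3′ end, so levels are compared within a gene. Of 186 labelled samples, 170 had a column; 16 were not analysed here. Averaging 1 pair of columns whose titles name the same cell gave 169 cells, and no cell was removed or tested for doublets, since each was picked singly. Of 55513 lines, 92 spike-ins were left out. Gene positions are from GENCODE vM21.

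Members and gene lists were chosen with earlier results of these data known. Genes reaching 1 TPM in 20% or more of LY cells were tested. The value was the mean over the cells of a class of log2(TPM + 1), which understates changes of low genes. Class means were fitted with limma 3.58.1 (R 4.3.3; eBayes with trend), the collection as a fixed block pairing the classes, and Benjamini-Hochberg adjustment over all 9685 genes at 0.05. The planned fit needed 2 cells per class and collection. The planned DMSO split, fresh split, their differences from the LY split, and LY against DMSO among Nanog-low cells had too few Nanog-low cells to be fitted; a pooled fit and the contrast of Nanog-low LY with Nanog-positive DMSO cells were added after the data were seen. LY against DMSO used the date as a block. The fits were run on simulated data with normal noise, of the same spread for every class mean of a gene whatever its number of cells. Means of few cells with many values at 0 were not simulated, so this was no test of the calls made here.

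Genes named are the 12 per direction with the largest difference among those past the threshold, 21 lineage and signalling genes whatever their values, up to 4 per direction in other comparisons, and up to 4 per list by smallest p; Rps25, Rps4x, and the list members named in the contrast of Nanog-low LY with DMSO cells were chosen after their values were seen. Shares have exact 95% Clopper-Pearson intervals, and a share of 0 allows up to 3 counts; both cover counting error only. Single values were compared by exact sign-flip permutation over collections. Alternatives varied the block, weights, threshold, pseudocount, filter, scaling, sequencing run and collections. One gene that was tested is not reported here.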

Additional observations from a re-analysis of the deposited data

Results flagged for a closer look

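Of 26 groups of 4 to 10 values examined for a value far from the others, 2 held one, where chance gives about 1 in 20. The difference of Gata6 between the classes was -0.55 (log2 scale) in collection 1 at 16 hours, apart from the other 4 collections, which were all above 0; it rests on 1 Nanog-low cell. In collection 3 at 16 hours, 1 Nanog-positive cell had 6615 genes detected, above the other 3.

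The class difference between 24 and 16 hours passed the test of the difference for 123 genes. The 24-hour side is 1 collection, the spread comes from the 2 collections at 16 hours, and the other 24-hour collection with both classes was not in the fit, so these values compare that collection with the 2 others and show no change with time. The largest positive differences were Ift20 (9.36), Ip6k2 (9.35), Ctsl (9.19) and Uqcrh (9.18), and the largest negative Snhg12 (-11.42), Hist1h2ap (-9.06), mt-Te (-8.72) and Rpl15-ps3 (-8.37), all on the log2 scale. The cause was not tested.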

How the results depend on the processing

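The comparison of both culture times (263 genes) called 74 genes without the collection as a replicate block, 90 with weights by cell number, 48 and 554 with Nanog thresholds of 5 and 20 TPM, 730 with a pseudocount of 0.1, 43 with the log of the mean TPM, 401 with TPM rescaled without mitochondrial genes, 484 and 0 with cells of run 1 or run 2 alone and at least 1 cell per class, and 0 with no filter on low values or with at least 1 cell per class. Quantile normalization called 216, of which 131 were higher and 85 lower, against 209 and 54. At 24 hours (634) the same choices gave 342 without the block, 157 with weights, 147 at 5 TPM, 1059 at a pseudocount of 0.1, 239 with the log of the mean, 1216 and 0 by run, and 0 with no filter or with at least 1 cell; at 16 hours (0) a pseudocount of 0.1 gave 1. The difference between 24 and 16 hours (123) gave 33 without the block, 49 with weights, 35 and 355 by threshold, 628 and 0 with pseudocounts of 0.1 and 10, 265 with a filter at 50% of LY cells, 11 with the log of the mean, 243 with rescaled TPM, 515 and 0 by run, and 0 with no filter or with at least 1 cell. The fit with all 5 LY collections called 0 genes under every alternative run. The split of other cells (0) gave 1 without the block, 1 at a pseudocount of 0.1, 9 with no filter and 2 with the log of the mean. LY against DMSO in Nanog-positive cells (0) gave 21 with weights, 11 and 2 at thresholds of 1 and 20 TPM, 2 with quantile normalization, 19 with at least 3 cells and 4 with cells of at least 5000 genes. Nanog-low LY against Nanog-positive DMSO cells (206) gave 0 with genes detected in the fit, 1945 at 1 TPM, 354 and 89 with pseudocounts of 0.1 and 10, 8 with at least 1 cell, 25 and 0 by run, 312 without the near-identical pairs and 0 to 250 when 1 LY collection was left out. Leaving out an LY collection outside the fit left 263, 634 and 123 as they were; leaving out one inside it (collections 2 and 3 at 16 hours, 1 at 24 hours), the covariate for genes detected, at least 3 cells, 1 TPM, 5000 genes and removal of the pairs could not be fitted for both times. Hspb1 turned to 0.0063 with at least 1 cell. The Sox2 share ranged from -30.0 to 25 points over collections left out and turned to 25 points without collection 1 at 24 hours and without the near-identical pairs, the Gata6 share fell from 16.4 to 2.62 points at 1 TPM, and the Fgf4 share turned from -4.76 to 4.76 points at 1 TPM; the causes of these changes were not tested.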
